A study of Mus musculus with 6 samples.

Results

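The 10 genes described here carry the growth hormone signal in liver: the receptor gene Ghr, the kinase gene Jak2, the transcription factor genes Stat5a and Stat5b, the feedback inhibitor genes Socs2 and Cish, the endocrine outputs Igf1 and Igfals, and the sex-biased regulators Bcl6 and Cux2. They were chosen by gene symbol, and all 10 were found among the 45777 genes of the table and among the 16197 that had enough reads to be tested. Whole-liver RNA came from C57BL/6 mice of 10 weeks with floxed Pak4 alleles (Pak4 flox/flox) in both groups. The 3 control libraries, labelled WT, carried no Cre transgene by their titles, so WT here means floxed and not wild type at the Pak4 locus. The 3 Pak4_KO libraries came from Alb-Cre; Pak4 flox/flox mice, in which the albumin promoter drives Cre recombinase and so deletes the floxed part in hepatocytes. The labels call this knockout hepatocyte-specific, and whether all other liver cells keep the floxed part was not tested. A group with Alb-Cre alone is not analysed here. The labels give replicate numbers but do not say which animal each library came from, and a p-value therefore reflects only how far these libraries differ, which may be technical.

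Growth hormone binds a receptor dimer on the hepatocyte, which activates the receptor-bound kinase JAK2. JAK2 phosphorylates STAT5A and STAT5B, which enter the nucleus and switch on target genes, among them their own inhibitors SOCS2 and CISH and the circulating growth factor IGF1. In rodents the pituitary releases the hormone in sharp pulses in males and more evenly in females, and STAT5 activity in male liver comes and goes with the pulses. That rhythm sets much of the sex bias of liver expression, with BCL6 as a male-biased repressor and CUX2 as a female-biased factor.

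Pak4, the targeted gene, had a WT mean of 6.51 ± 0.615 CPM and a Pak4_KO mean of 1.84 ± 0.441 CPM (SD, n = 3 each), where CPM are read counts scaled to a common library size with TMM factors. Each Pak4_KO library lay below each WT library, and the log2 fold change was -1.82 with an SE of 0.24 and an edgeR adjusted p of 0.0169. The adjusted p for Pak4 was 0.0562 without WT replicate 1, 0.0608 without WT replicate 2 and 0.0936 without Pak4_KO replicate 3. Library totals ran from 39603272 to 52521400 reads. The labels give no sex. Ddx3y on chromosome Y had between 5718 and 8806 reads in each library, and Xist between 0 and 16. All 11 hepatocyte marker genes found in the table had reads in every library, and together they took 76356 to 93950 CPM in WT and 80862 to 90742 CPM in Pak4_KO.

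None of the 10 genes passed the test over all genes, edgeR's quasi-likelihood test with Benjamini-Hochberg adjustment at 0.05, which called 76 of the 16197 genes (0.469%). At an unadjusted p under 0.05 there were 2 of the 10, Bcl6 and Igf1, where the share over all tested genes was 8.21%. In CPM the groups did not overlap for 2 of the 10, Bcl6 and Stat5a, both lower in Pak4_KO. The share over all tested genes was 13.4% in either direction. Estimates were negative for 7 genes and positive for Socs2, Cish and Cux2. The median log2 fold change of the 10 was -0.17, beside 0.0045 over all tested genes. The DESeq2 Wald test, which called 334 genes (2.06%), called 1 of the 10, Bcl6.

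**Figure D1:**
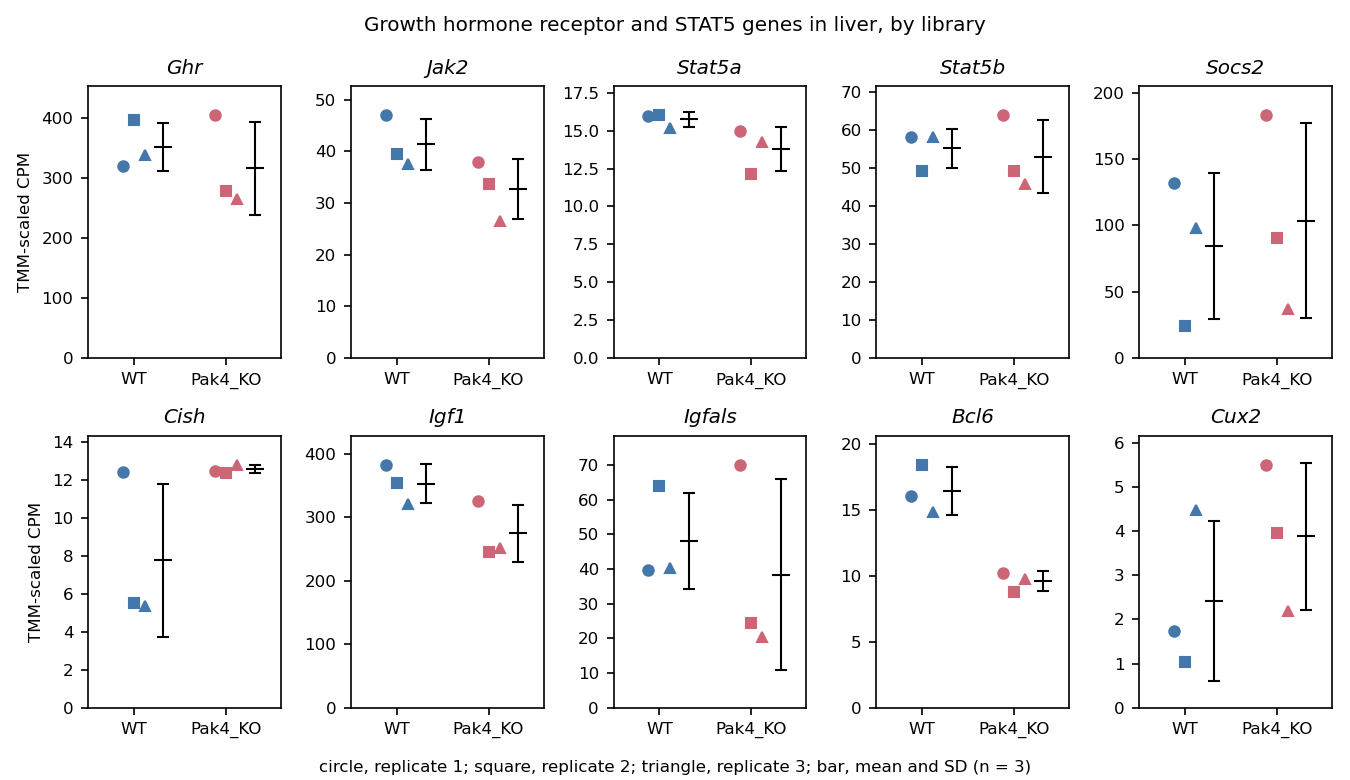
TMM-scaled CPM of each gene in each library, on linear axes from 0, with WT in blue and Pak4_KO in red, and the mean and SD (n = 3) drawn beside each group. The groups stand apart for Bcl6 and, by a narrow gap, for Stat5a, while Socs2, Igfals and Cux2 spread widely inside both groups.

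Ghr (NCBI gene 14600, chromosome 15, 3317755 to 3583352, minus strand of GRCm38, also called mm10), the gene of the receptor itself, was the most abundant of the 10 per unit of length and gave no call. Its values were 320, 397 and 339 CPM in WT replicates 1, 2 and 3, beside 405, 279 and 265 CPM in Pak4_KO replicates 1, 2 and 3. Pak4_KO replicate 1 held the highest value of all 6 libraries while replicates 2 and 3 of that group held the lowest, so the groups overlapped fully. The log2 fold change of Ghr was -0.15 (SE 0.19, 95% interval -0.59 to 0.28, edgeR adjusted p = 0.918). With 1 library left out the estimate for Ghr ran from -0.043 without Pak4_KO replicate 3, -0.058 without WT replicate 2 and -0.071 without Pak4_KO replicate 2 to -0.37 (adjusted p = 0.511) without Pak4_KO replicate 1.

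Jak2 (NCBI gene 16452, chromosome 19, 29251803 to 29313095, plus strand) encodes the kinase that the receptor holds. Jak2 stood at 47.0, 39.4 and 37.6 CPM in WT replicates 1, 2 and 3 and at 38.0, 33.7 and 26.5 CPM in the Pak4_KO replicates. Only Pak4_KO replicate 1 reached into the WT range. The log2 fold change of Jak2 was -0.34 (SE 0.17, 95% interval -0.72 to 0.04, edgeR adjusted p = 0.664).

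Stat5a and Stat5b encode near-identical transcription factors, of which STAT5B is the main form in liver. They lie head to head on chromosome 11, Stat5b from 100780731 to 100859004 on the minus strand and Stat5a from 100859351 to 100885169 on the plus strand, with 346 bases between the RefSeq genes. Of all stretches of 100 bases in the longest coding transcript of Stat5a, 6.99% occur letter for letter in that of Stat5b, so counting could assign some reads to either gene. In TPM, which takes gene length into account, Stat5b was above Stat5a in each of the 6 libraries, by 2.33 to 3.21 times.

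Stat5a had 16, 16 and 15.2 CPM in WT replicates 1, 2 and 3 and 15, 12.2 and 14.3 CPM in the Pak4_KO replicates. In CPM the Pak4_KO values were all lower, but the gap between the groups was small beside the spread inside Pak4_KO. In TPM the Stat5a groups overlapped, with 6.92, 6.68 and 6.31 in WT replicates 1, 2 and 3. The Pak4_KO replicates 1, 2 and 3 had 6.58, 5.12 and 6.73 TPM. The log2 fold change of Stat5a was -0.19 (SE 0.14, 95% interval -0.51 to 0.13, edgeR adjusted p = 0.812). For Stat5b the values were 58.3, 49.3 and 58.2 CPM in WT and 63.9, 49.3 and 45.8 CPM in Pak4_KO, which overlapped. The log2 fold change of Stat5b was -0.06 (SE 0.16, 95% interval -0.42 to 0.30, edgeR adjusted p = 0.969), and its sign turned with TPM or without Pak4_KO replicate 3.

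**Figure D2:**
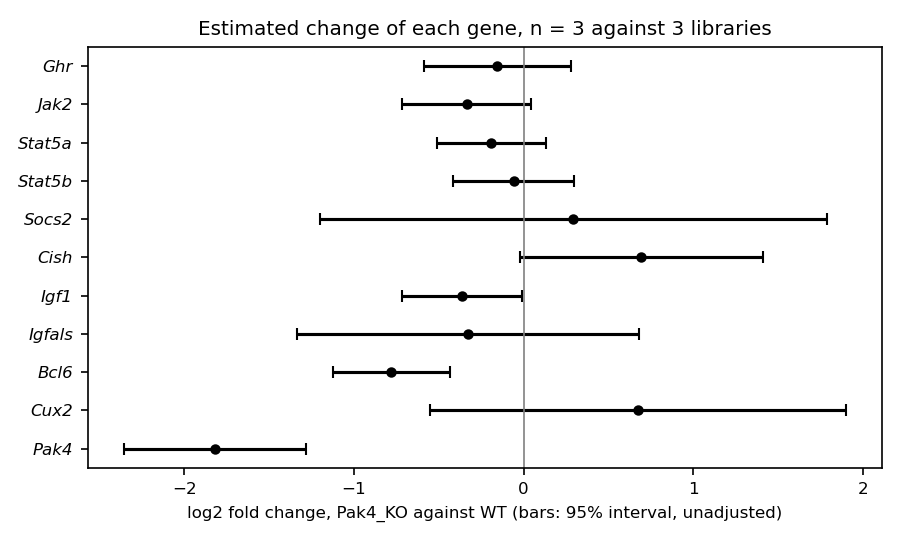
Log2 fold change of each gene and of Pak4, Pak4_KO against WT, with unadjusted 95% intervals from the edgeR fit on 3 against 3 libraries. The intervals of Bcl6, Igf1 and Pak4 leave out 0, and those of Socs2, Igfals and Cux2 are the widest.

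Socs2 (NCBI gene 216233, chromosome 10, 95383903 to 95417321, minus strand), the gene of an inhibitor that sends the receptor for degradation, varied widely among libraries of the same genotype. WT replicates 1, 2 and 3 stood at 132, 24.1 and 97.6 CPM, and Pak4_KO replicates 1, 2 and 3 at 183, 90.7 and 37.0 CPM. The highest value exceeded the lowest 5.48-fold within WT and 4.95-fold within Pak4_KO. The log2 fold change of Socs2 was 0.29 (SE 0.65, 95% interval -1.20 to 1.79, edgeR adjusted p = 0.962), an interval that allows a change of over 2-fold in either direction. Its sign turned without WT replicate 2 (-0.15) and without Pak4_KO replicate 1 (-0.40).

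Cish, another STAT5-induced inhibitor of the pathway, showed a different pattern from Socs2. All 3 Pak4_KO libraries lay close together at 12.5, 12.4 and 12.8 CPM, while WT replicates 1, 2 and 3 stood at 12.4, 5.53 and 5.37 CPM. WT replicate 1 thus matched the Pak4_KO libraries, and the other two WT libraries were lower. The means were 7.78 ± 4.04 CPM in WT and 12.6 ± 0.208 CPM in Pak4_KO (SD, n = 3 each), a log2 fold change of 0.70 (SE 0.31, 95% interval -0.02 to 1.41, edgeR adjusted p = 0.627). With 1 library left out the estimate for Cish ran from 0.49 (without WT replicate 3, adjusted p = 0.723) to 1.19 (without WT replicate 1, 0.0682), short of the threshold in each of these fits. The low Cish level in WT replicate 3 came with a Socs2 level of 97.6 CPM, above 3 of the other 5 libraries.

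The sequence in which STAT5 and BCL6 can both bind is a short palindrome, written TTCNNNGAA, which reads the same on both strands. In RefSeq windows of 250 bases before and 50 after a transcription start, 2726 of 32851 windows (8.30%) hold it, and 2582 of 27025 genes (9.55%) have at least 1 such window. Of the 10 genes, 9 matched a window, and the motif was found in those of Bcl6, Cish and Igfals. A match describes the letters only, since these data hold no binding measurement. The start of Cish is shown because it holds 2 copies of the motif almost side by side. Cish (NCBI gene 12700) lies on chromosome 9 from 107296659 to 107302784 on the plus strand, and the stretch at chr9:107296654-107296683 has matches beginning at bases 1 and 12 of the RefSeq transcript, in capitals.
Cish: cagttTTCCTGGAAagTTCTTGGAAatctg
GENCODE M21 has a longer Cish transcript in which this stretch lies inside the 5′ untranslated region. On the opposite strand Cish overlaps Gm17040 and Gm17041, and likewise Igf1 overlaps Igf1os, Cux2 overlaps Gm3970 and Gm15637, Bcl6 overlaps Gm37419, and the end of Stat5a overlaps Stat3. Whether the counting used the strand is not given in the sources used here, so reads of such pairs may not be told apart.

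Igf1 (NCBI gene 16000, chromosome 10, 87858265 to 87937047, plus strand) encodes the growth factor that liver secretes under growth hormone. Igf1 had 382, 354 and 321 CPM in WT replicates 1, 2 and 3 and 326, 246 and 251 CPM in the Pak4_KO replicates. Only Pak4_KO replicate 1 lay within the WT range. The means were 353 ± 30.4 and 274 ± 44.8 CPM (SD, n = 3 each), a log2 fold change of -0.36 (SE 0.15, 95% interval -0.72 to -0.0079), or 1.28-fold lower. The unadjusted p of Igf1 was 0.0461 and the edgeR adjusted p 0.596. With 1 library left out the estimate for Igf1 ran from -0.29 (without Pak4_KO replicate 2, adjusted p = 0.808) to -0.50 (without Pak4_KO replicate 1, 0.313).

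Igfals encodes the acid-labile subunit, which holds IGF1 and an IGF-binding protein in a long-lived complex in blood. WT replicates 1, 2 and 3 stood at 39.9, 64.1 and 40.3 CPM, and Pak4_KO replicates 1, 2 and 3 at 70.1, 24.5 and 20.4 CPM. The Pak4_KO group thus held the highest and both of the lowest values, a 3.43-fold range. The log2 fold change of Igfals was -0.33 (SE 0.44, 95% interval -1.33 to 0.68, edgeR adjusted p = 0.927). The size of the estimate turned on single libraries, from -0.026 without Pak4_KO replicate 3 to -1.10 (adjusted p = 0.201) without Pak4_KO replicate 1. Igfbp3, which encodes the IGF-binding protein of that complex and is named here for its role, had an estimate of -0.05 on the log2 scale, with an SE of 0.25 and an edgeR adjusted p of 0.993.

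Across the 6 libraries Igfals followed Ghr closely, whatever the genotype. The order of the libraries was the same for both genes, from Pak4_KO replicate 3, the lowest, through Pak4_KO replicate 2 and WT replicates 1, 3 and 2 to Pak4_KO replicate 1. On the log2 scale Pearson's r was 0.994 (exact permutation p = 0.00139, the smallest that the permutations can give) and Spearman's rho was 1.0 (exact permutation p = 0.00278). Over the 45 pairs among the 10 genes the Benjamini-Hochberg adjusted p of this pair was 0.0625, the smallest of the 45. With 6 libraries, a pair that alone reaches the smallest permutation p cannot pass at 0.05 over 45 pairs. The adjusted value therefore does not decide on this pair. Without the 2 libraries farthest from the median of Ghr, r was 0.987, and with each genotype's mean removed it was 0.993. Igfals ranked 3 of 16196 other tested genes by its r with Ghr, a count made after the relation was seen. The range was unequal, 1.53-fold for Ghr and 3.43-fold for Igfals. WT replicate 2 and Pak4_KO replicate 1, the libraries highest in both genes, also had the highest scores on the second principal component of all genes (27.6 and 42.6, against -46.8 to 3.95 in the others), and the part of that wider difference was not tested.

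**Figure D3:**
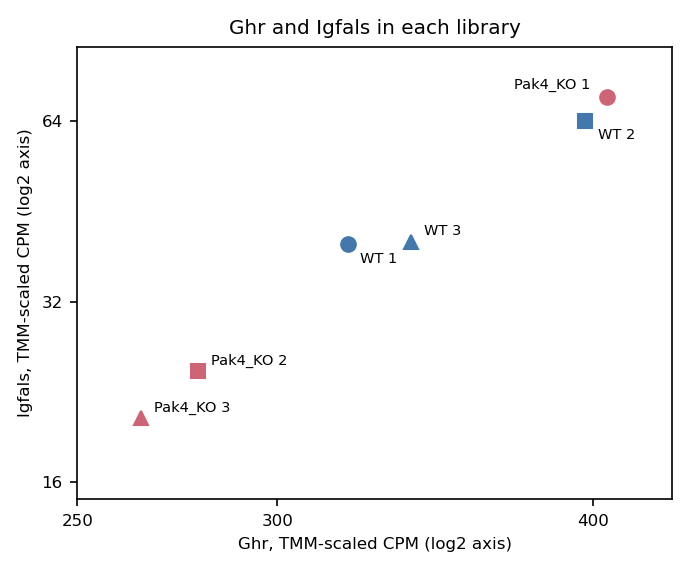
Igfals against Ghr in each library, both in TMM-scaled CPM on log2 axes, with WT in blue and Pak4_KO in red. Ghr runs from 265 to 405 CPM and Igfals from 20.4 to 70.1 CPM, and the 6 libraries keep the same order on both axes.

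The Igfals starts are shown because Igfals moved with the receptor gene and 2 of its 3 RefSeq windows hold the STAT5 motif. Igfals (NCBI gene 16005) lies on chromosome 17 from 24877844 to 24882011 on the plus strand. The stretch at chr17:24877594-24877646 has the match 236 bases before the outer start, and the stretch at chr17:24878143-24878211 has it 58 bases before an internal start.
Igfals, outer start: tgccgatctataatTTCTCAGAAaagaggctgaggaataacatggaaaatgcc
Igfals, internal start: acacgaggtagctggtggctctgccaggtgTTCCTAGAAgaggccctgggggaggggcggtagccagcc
The windows of Ghr, Jak2, Stat5a, Stat5b, Igf1 and Cux2 did not hold these letters, which says nothing of sites elsewhere in those genes.

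Bcl6 had the smallest p of the 10 genes in the edgeR fit. BCL6 is a zinc finger repressor that in male liver sits at many female-biased genes and binds sites much like those of STAT5. Its RNA stood at 16, 18.4 and 14.9 CPM in WT replicates 1, 2 and 3, and at 10.2, 8.74 and 9.72 CPM in Pak4_KO replicates 1, 2 and 3. All 3 Pak4_KO values lay below all 3 WT values, with little spread inside either group. The means were 16.4 ± 1.80 and 9.57 ± 0.761 CPM (SD, n = 3 each), a log2 fold change of -0.78 (SE 0.15, 95% interval -1.13 to -0.43) or 1.72-fold lower in Pak4_KO. The edgeR adjusted p of Bcl6 was 0.0977, which misses the threshold, and the gene ranked 122 of 16197 by p. By the DESeq2 Wald test the log2 fold change of Bcl6 was -0.79 with an adjusted p of 0.000857. Bcl6 stayed lower when each library was left out in turn, between -0.85 and -0.69, with edgeR adjusted p from 0.11 to 0.339.

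Bcl6 (NCBI gene 12053) lies on chromosome 16 from 23965050 to 23988866 on the minus strand. The Bcl6 stretches are shown because Bcl6 stood apart between the genotypes and both of its windows hold the STAT5 and BCL6 motif, in capitals here, 5′ to 3′ on the minus strand. The stretch at chr16:23988932-23989000 lies before a RefSeq transcript start just inside the outer end of the gene, with the match beginning 118 bases upstream of that start. The stretch at chr16:23981333-23981481 lies before an internal start, in an intron of the full-length transcript, with matches beginning 168, 122 and 88 bases upstream.
Bcl6, outer start: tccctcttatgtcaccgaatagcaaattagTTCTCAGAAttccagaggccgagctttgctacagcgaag
Bcl6, internal start: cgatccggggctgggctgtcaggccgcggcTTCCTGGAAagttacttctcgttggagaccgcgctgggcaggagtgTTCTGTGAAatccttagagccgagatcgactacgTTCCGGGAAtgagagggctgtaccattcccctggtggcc

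Markers of some blood cells were lower in Pak4_KO, as was Bcl6, which lymphocytes also express, while markers of endothelial, stellate and bile duct cells leaned the other way. Summed over 9 T and NK cell genes the level was 4.21 to 6.08 CPM in WT and 2.14 to 2.78 CPM in Pak4_KO, and over 8 neutrophil genes 39.1 to 73.3 CPM and 25.6 to 34.2 CPM. All 6 tested T and NK cell genes and all 8 neutrophil genes had negative estimates, none of them called. Over 8 B cell genes the sums overlapped, at 1.27 to 2.83 CPM in WT and 2.1 to 2.85 CPM in Pak4_KO, with 1 or 2 of the 8 at 0 reads in each library. Kupffer cell genes, 10 in all and all negative, summed to 393 to 480 CPM in WT and 326 to 401 CPM in Pak4_KO. Of the endothelial genes 8 of 8 had positive estimates (236 to 303 CPM summed in WT, 250 to 350 CPM in Pak4_KO), of the stellate cell genes 6 of 8 (213 to 327 and 209 to 391 CPM), and of the bile duct genes 6 of 7 (41.0 to 59.8 and 54.4 to 83.8 CPM). None of these was called. The groups stood apart and higher for Vwf, Lrat, Col3a1, Pkhd1 and Epcam. They stood apart and lower for Cd4, Cd3g, Trac, Cxcr2, S100a9, S100a8, Mmp8 and Cd68. Of the 11 hepatocyte genes 8 had negative estimates and none was called. Foxa3, Serpina1a and Serpina1b stood apart and lower, and Alb apart and higher. These genes were named after their values were seen. Over all 16197 tested genes, 1190 stood apart and higher and 981 apart and lower. The part of all these cells in the Bcl6 value was not tested, and in whole tissue fewer cells of a type and less RNA per cell cannot be told apart.

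Cux2 (NCBI gene 13048, chromosome 5, 121857962 to 122050415, minus strand), which encodes a cut-homeobox factor abundant in female liver, was the least abundant of the 10. WT replicates 1, 2 and 3 held 69, 49 and 225 reads, and Pak4_KO replicates 1, 2 and 3 held 233, 187 and 109. The lone high WT library, replicate 3, lay inside the Pak4_KO range, and the groups overlapped. In CPM the means were 2.42 ± 1.82 and 3.88 ± 1.66 (SD, n = 3 each), a log2 fold change of 0.68 (SE 0.54, 95% interval -0.55 to 1.90, edgeR adjusted p = 0.831). With 1 library left out the estimate for Cux2 ran from 0.31 (without WT replicate 2, adjusted p = 0.953) and 0.34 (without Pak4_KO replicate 1, 0.919) to 1.49 (without WT replicate 3, 0.338). Bcl6 and Cux2 had estimates of opposite sign, neither past the edgeR threshold.

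By the deposited TPM, which can be compared between genes, the order of mean levels over the 6 libraries was Ghr, Igf1, Socs2, Igfals, Stat5b, Jak2, Stat5a, Cish, Bcl6 and Cux2. Ghr at 153 ± 24.3 TPM (SD, n = 6) was above Igf1 at 75.7 ± 12.4 TPM in every library, with no overlap of the ranges. Igf1, Socs2 (66.2 ± 42.5 TPM) and Igfals (33.9 ± 15.6 TPM) overlapped with their neighbours in the order, and Igf1 exceeded Socs2 in 4 of 6 libraries. Stat5b (17.7 ± 2.12 TPM) and Jak2 (12.8 ± 1.99 TPM) overlapped in range although Stat5b was higher in each library. Stat5a (6.39 ± 0.655 TPM), Cish (5.73 ± 2.24 TPM) and Bcl6 (5.31 ± 1.39 TPM) could not be ordered beyond their spread. Cux2 at 0.754 ± 0.425 TPM was below the rest in every library.

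The spread between libraries of one genotype differed widely among the 10 genes. By the SD of log2 CPM within genotype, Socs2 stood at percentile 97.7 of all tested genes, Cux2 at 94.4, Igfals at 91.2 and Cish at 78.4. Stat5a stood at percentile 9.45, Bcl6 at 15.2, Igf1 at 27.7, Stat5b at 33.5, Jak2 at 38.0 and Ghr at 47.8. The feedback inhibitor genes, Igfals and Cux2 were thus the variable members, and the receptor, kinase and STAT5 genes lay below the median gene. Cux2 had the fewest reads of the 10 genes, 49 to 233 a library, and the part of low counts in its spread was not tested.

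By the rule for genes of like pattern, the 3 members with the smallest p were set against 11425 other tested genes over the 6 libraries, as a description. Closest to Bcl6 were Prnp (r = 0.999), Hsd17b10 (0.996) and Mbnl1 (0.990). Igf1 was closest to C6 (0.991), Dbnl (0.988) and Gimap3 (0.985), and Cish to Svep1 (0.991), Cd38 (0.988) and Prss53 (0.981).

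The wider signal chain held no called gene. Of 20 tested genes for receptors, kinases, adaptors and STATs, 16 had a negative and 4 a positive estimate, with a median of -0.10. Irs2, an insulin receptor substrate that fasting is known to raise in liver, had 48.3, 28.5 and 29.2 CPM in WT replicates 1, 2 and 3 and 106, 51.4 and 79.5 CPM in the Pak4_KO replicates, with no overlap. Its log2 fold change was 1.16 (SE 0.29, edgeR adjusted p = 0.243), and both the DESeq2 Wald test (adjusted p = 0.00841) and the fit with replicate number as a block (0.0492) called Irs2. Grb2, an adaptor of the receptor kinases, had a WT mean of 29.9 ± 3.81 CPM and a Pak4_KO mean of 23.9 ± 0.227 CPM (SD, n = 3 each, log2 fold change -0.32, edgeR adjusted p = 0.583), without overlap.

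Among 23 genes that damp the signal, SOCS proteins, phosphatases, PIAS proteins and ubiquitin ligase parts, 15 estimates were positive and 8 negative, with a median of 0.04 and no call. Cish and Socs3 had the smallest p. Socs3, a cytokine-induced inhibitor, averaged 124 ± 37.5 CPM over the WT libraries and 158 ± 30.6 CPM over the Pak4_KO libraries (SD, n = 3 each, log2 fold change 0.35, edgeR adjusted p = 0.767).

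The IGF axis, 13 tested genes for IGFs, their binding proteins and receptors, had 6 positive and 7 negative estimates, a median of -0.05 and no call. Igfbp5, a binding protein, averaged 2.3 ± 1.25 CPM over the WT libraries and 0.883 ± 0.247 CPM over the Pak4_KO libraries (SD, n = 3 each, log2 fold change -1.38, edgeR adjusted p = 0.480). Igfbp1, a binding protein that insulin represses, had 228, 103 and 338 CPM in WT replicates 1, 2 and 3 and 1818, 425 and 222 CPM in the Pak4_KO replicates. Pak4_KO replicate 1 was far above the other 5 libraries, and it was also the highest for Ghr, Stat5b, Igfals, Socs2 and Cux2. The log2 fold change of Igfbp1 was 1.88 (SE 0.74, edgeR adjusted p = 0.542), and it was 0.54 (adjusted p = 0.795) without Pak4_KO replicate 1. The feeding state of the mice is not given in the sources used here.

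Of 12 sex-biased or sex-linked transcription factors of liver, 9 had a positive and 3 a negative estimate, with a median of 0.16 and no call. Besides Bcl6 the smallest p was that of Tox, a female-biased nuclear factor, with 4.06, 3.96 and 6.52 CPM in WT replicates 1, 2 and 3 and 8.47, 8.81 and 9.84 CPM in the Pak4_KO replicates. The Tox groups did not overlap (log2 fold change 0.90, SE 0.23, edgeR adjusted p = 0.244), and the DESeq2 Wald test called it (adjusted p = 0.0317).

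Genes known to depend on growth hormone in one sex were counted from lists drawn up with earlier results of these data in view, so their counts are no independent evidence of a direction. Of 31 male-biased genes, 27 had a negative and 4 a positive estimate, the median was -0.48 and 4 fell by the edgeR test. These were Capn8, a calpain (log2 fold change -2.87, adjusted p = 0.0181), Sult5a1, a sulfotransferase (-2.64, 0.0269), Dct, a tautomerase of melanin synthesis (-2.76, 0.0273), and Moxd1, a copper monooxygenase (-8.44, 0.0369). They were known to fall when the list was made, and without them the median of the other 27 was -0.42, with 23 negative. Moxd1 had 2723, 1287 and 262 reads in WT replicates 1, 2 and 3, and 13, 0 and 0 in Pak4_KO replicates 1, 2 and 3. It was not called by limma-voom (adjusted p = 0.375) or by limma on log2(TPM + 1) (adjusted p = 0.126). The edgeR estimate of Moxd1 was -7.84 without Pak4_KO replicate 2 and -7.81 without Pak4_KO replicate 3. Without Pak4_KO replicate 1 no fold is given, because the Pak4_KO libraries that remain have 0 reads. With either of WT replicates 1 and 2 left out, or either of Pak4_KO replicates 2 and 3, none of the 4 was called, and 2 were called without Pak4_KO replicate 1. Of 30 tested female-biased genes, 25 had a positive and 5 a negative estimate, with a median of 0.75. Only Cyp2a4, a steroid hydroxylase, rose by the edgeR test (log2 fold change 5.60, adjusted p = 0.000349), and leaving out WT replicate 2 or Pak4_KO replicate 1 made it 2 genes. Of the major urinary protein genes, male-biased pheromone carriers, all 21 tested had a negative estimate, with a median of -0.45 and no call. The smallest p were those of Mup5 (log2 fold change -2.87, edgeR adjusted p = 0.222) and Mup14 (-0.75, 0.481), and single values are uncertain, since the family is known for near-identical copies and how multi-mapping reads were counted is not given in the sources used here.

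**Figure D4:**
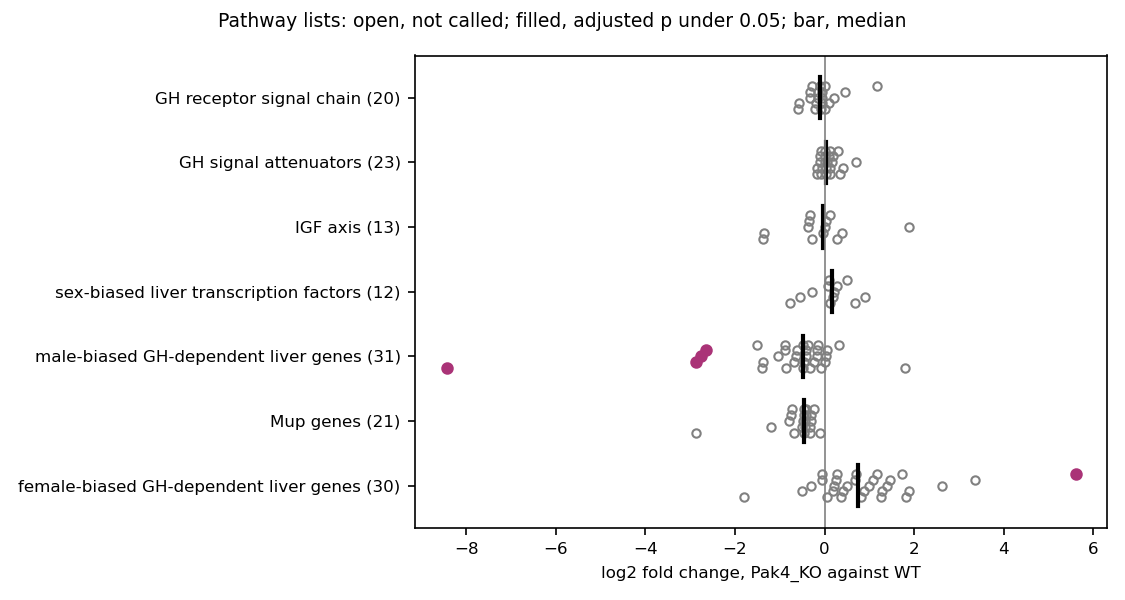
Log2 fold change, Pak4_KO against WT, of each tested gene of 7 lists (number in brackets), with the list median as a bar and called genes filled. The signal chain, the attenuators and the IGF axis centre near 0, and the male-biased and female-biased lists have medians of -0.48 and 0.75.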

How the data were processed

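Whole-liver RNA was extracted with Trizol and made into libraries with a TruSeq Stranded mRNA kit, as the labels' protocols say. StringTie 2.1.3b, HISAT2 2.1.0, Bowtie2 2.3.4.1 and the build mm10 are named in the submitters' processing notes, without their roles. Annotation and strand setting: not given in the sources used here. Whole-number read counts per gene, not normalized, were deposited, per the file headers. The deposited FPKM (per length and library total) were not used. The deposited TPM (per length, scaled to a fixed total) served for levels between genes and in 2 alternatives.

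The fit to the counts used R 4.3.3 and edgeR 4.0.16: filterByExpr, TMM factors, and the two-sided quasi-likelihood test over all 6 libraries, Benjamini-Hochberg adjusted over 16197 genes. SE is the absolute log2 fold change over the square root of F, and intervals are 95%, unadjusted. Log2 CPM used a prior count of 2. The procedure was also run on counts simulated from the means and spread of these same libraries, with known changes planted. No result here rests on that run. Alternatives were other scalings and filters, DESeq2 1.42.0, limma 3.58.1 (voom, and log2(TPM + 1) or log2(TPM + 0.1)), robust edgeR, a replicate block and libraries left out. Positions and start windows are RefSeq's for GRCm38.p6, and overlaps are from GENCODE M21.

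The members, lists and tests were chosen with earlier results of these data known. By the rule, all members were named, and from each list up to 4 called genes or the 2 with the smallest p. Other genes were named for their role or after their values were seen.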

Additional observations from a re-analysis of the deposited data

How the results depend on the processing

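The count of called members was 0 by edgeR under each scaling, filter and left-out library tried, and 1 (Bcl6) by the DESeq2 Wald test. Signs were unchanged in all 18 alternatives for 8 members. Stat5b turned to 0.0171 with log2(TPM + 1), 0.0177 with log2(TPM + 0.1) and 0.0333 without Pak4_KO replicate 3, within -0.215 to 0.0333 over all single libraries left out. Socs2 turned to -0.15 without WT replicate 2, -0.40 without Pak4_KO replicate 1 (to 0.75 without WT replicate 1) and -0.29 with WT replicate 3 and Pak4_KO replicate 1 both left out. Over all genes, the 43 higher calls became 16 with at least 10 reads in every library, 175 with DESeq2 and 22 to 34 with 1 library left out, and the 33 lower calls became 159 with DESeq2 and 13 to 47 with 1 library left out. DESeq2 called 1 gene of the signal chain, 2 of the sex-biased factors, 9 male-biased, 8 female-biased and 1 major urinary protein gene. These are counts in either direction, and over all tested genes DESeq2 called 2.06%. The 9 included Cyp4a10, which was higher in Pak4_KO (edgeR log2 fold change 1.80). The 8 included Cyp17a1, which was lower (-1.81). The male-biased calls were 2 with log2(TPM + 1) and 0 to 4 with 1 library left out, the female-biased calls 1 to 2 with 1 and 2 with both named libraries left out, and the urinary protein calls 0 to 1. With the replicate number as a block, 1 gene of the signal chain and 3 female-biased genes were called, and no member. Deviations of same-numbered libraries correlated at 0.07, -0.20 and 0.15, and those of differently numbered libraries at -0.24 to 0.19. With 3 libraries a group, these values cannot tell whether the numbers pair the samples. The causes of these changes were not tested. With 3 libraries a group, the intervals of Socs2, Igfals and Cux2 are the widest of the members, and the data do not tell apart the changes inside them.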
